A study of Homo sapiens with 4 samples.

Results

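CD44 and the genes that make and break down its ligand hyaluronan were followed in cells labelled AGS, the name of an established human gastric cancer cell line. The 8 genes were chosen by name, with earlier results of these data known. They are the receptor gene CD44, the synthase genes HAS1, HAS2 and HAS3, the hyaluronidase genes HYAL1, HYAL2 and HYAL3, and CEMIP. All 8 were found among the 51103 genes of each table. The contrast described here was known when they were chosen, so their differences are given as descriptions, with no test.

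Hyaluronan is a long, unbranched sugar polymer of the matrix between cells. Synthases in the plasma membrane build it from UDP-glucuronic acid and UDP-N-acetylglucosamine, hyaluronidases and CEMIP shorten it, and the membrane glycoprotein CD44 binds it and links the cell surface to the actin cytoskeleton. CD44 is made in a standard form and in variant forms by alternative splicing, and in gastric tumours it is widely used as a marker of cells with stem-like properties.

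The study treated these cells with recombinant human FGF2, a ligand of the FGF receptor tyrosine kinases, at 20 ng/mL and took RNA after 24 h. The labels give 2 libraries of treated cells and 2 libraries of a group called NC. They do not spell out that name, and their treatment text describes the addition of FGF2 for the NC libraries too, so the treatment of the NC cells is uncertain. By the labels, all cells were of the same line and were grown in serum. Nothing in the labels says that libraries of a group came from separate cultures.

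The tables held 13790335 and 27598608 counts for FGF2 and 14073340 and 27325697 counts for NC. In each group the count of library 1 was above that of library 2 at only 2 genes, where 1192 (FGF2) and 1214 (NC) would be expected of separate libraries, and genes of 10 to 1000 counts differed between the libraries by less than the sampling noise (chi-square per gene of 0.771 for FGF2 and 0.764 for NC). Each pair was therefore counted as 1 sample (n = 1 per group), and no p-value is given. Library 2 gives the group's value. Library 1 and the counts of library 2 beyond it, called the rest of library 2, serve as 2 disjoint read sets. Intervals are 95% exact intervals that cover counting error only. They are too narrow, since the chi-square per gene between the read sets of a group was 2.42 for FGF2 and 2.46 for NC. In bulk RNA, more cells that express a gene and more RNA per cell cannot be told apart.

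The FGF response genes SPRY2, SPRY4, DUSP6, ETV4, ETV5 and FOSL1 were higher in the FGF2 sample, each by 2.52-fold or more, with a median log2 fold change of 2.26 over the 6. The epithelial keratin genes KRT8, KRT18, KRT19 and KRT7 stood at 47.6 FPKM or more in the FGF2 sample and 27.3 FPKM or more in the NC sample (FPKM, fragments per kilobase of exon scaled to the library's counted total). EPCAM, the epithelial adhesion gene, stood at only 0.518 FPKM in the FGF2 sample, against 1.19 FPKM in the NC sample. CLDN4, CLDN7 and LGALS4, the other epithelial markers of the list, were below EPCAM in both samples. Of 8 leukocyte markers 5 were at 0 in the FGF2 sample, against 4 in the NC sample, and the defining gene PTPRC had 0 counts in FGF2 library 2 and 2 in NC library 2. The summed level of the leukocyte list was 0.424 and 0.953 FPKM in the FGF2 libraries, against 1.23 and 1.14 FPKM in the NC libraries. Of 10 fibroblast markers COL1A2 and FAP were at 0 in every library. The summed level of the fibroblast list was 84.3 and 83.8 FPKM in the FGF2 libraries, against 141.4 and 144.6 FPKM in the NC libraries. Most of it was COL1A1, which had a log2 fold change of -0.72 (-0.75 to -0.69). PDGFRB stood at 6.29 FPKM in the FGF2 sample, against 21.0 FPKM in the NC sample (-1.66, -1.75 to -1.57). THY1 had a log2 fold change of 0.02 (-0.06 to 0.09). COL3A1 had 6 counts in FGF2 library 2 and 137 in NC library 2. DCN, LUM and POSTN had 0 counts in FGF2 library 2 and 12 or fewer in NC library 2. PDGFRA had 3 counts in FGF2 library 2 and 0 in NC library 2. Of the 5 endothelial markers 2 were at 0 in the FGF2 sample, against 3 in the NC sample, and their summed level was at most 0.322 FPKM in the FGF2 libraries, against 0.361 FPKM in the NC libraries. The epithelial list was thus mixed, with the keratin genes high and EPCAM and the claudin genes low. Beside it, COL1A1 of the fibroblast list stood at 59.4 FPKM in the FGF2 sample, against 103.8 FPKM in the NC sample. That the cells are AGS rests on the labels alone and was not tested. The part of these markers in the results was not tested either.

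The promoters of 7 of the genes, all but HAS2, were searched for a few factor motifs in the 250 bases before each start in RefSeq (GRCh38.p14, 8 windows, since HYAL3 has 2 starts). The GC box GGGCGG, bound by SP1-type factors, was found on either strand in 7 of the 8 windows and in 42.6% of 35116 promoters. The AP-1 motif TGANTCA, bound by the FOS and JUN factors that ERK signalling activates, was found in 0 of the 8 windows and 6.57% of all promoters, and the ETS core CCGGAA in 0 and 14.5%. The TEAD motif GGAATG was found in 2 windows and 11.9% of promoters, and TATAAA in 1 window, that of CEMIP, and 10.7% of promoters. Both strands were searched in each case, and the only overlap between motifs is that the ETS and TEAD letters share GGAA. The GC content of the windows was between 62.4% and 74.4%, against a median of 58% over all promoters. A match is a description and not a site, and these windows say nothing of enhancers. The stretches below are shown because they belong to the receptor, the detected synthase, the hyaluronidase gene with the highest level and CEMIP, whose TATA match runs across the end of the bases shown, so that only its first letters are in them. Capitals mark the GC box or its complement CCGCCC. For CD44 only the 30 bases that hold both matches are shown, because exons of longer GENCODE v29 transcripts overlap its window. The others are bases outside GENCODE v29 exons. The HAS3 bases lie within the annotated gene, which starts at chr16:69105564, so a longer HAS3 transcript starts before them. In the 150 bases of HAS3 there was no GC box.
CD44, chr11:35138998-35139027, plus strand: acgGGGCGGgggcagaggggcCCGCCCggg
HAS3, chr16:69107390-69107539, plus strand: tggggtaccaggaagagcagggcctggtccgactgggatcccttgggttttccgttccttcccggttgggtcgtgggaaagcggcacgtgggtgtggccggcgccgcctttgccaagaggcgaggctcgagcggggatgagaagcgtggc
HYAL3, chr3:50299469-50299618, minus strand: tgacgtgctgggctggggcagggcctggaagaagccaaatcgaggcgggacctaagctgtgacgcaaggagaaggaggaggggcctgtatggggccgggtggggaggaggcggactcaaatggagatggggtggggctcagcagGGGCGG
CEMIP, chr15:80779193-80779342, plus strand: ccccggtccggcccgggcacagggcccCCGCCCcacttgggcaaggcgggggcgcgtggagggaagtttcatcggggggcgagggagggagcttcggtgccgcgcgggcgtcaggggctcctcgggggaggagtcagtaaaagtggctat

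CD44 mRNA was 2.26-fold higher in the FGF2 sample than in the NC sample, and it was the only member that met the rule used here for a difference. The rule takes genes that average 50 or more counts over the read sets, and asks for a 1.5-fold gap, in 1 direction, between each FGF2 read set and each NC read set. CD44 (ENSG00000026508) is annotated at chr11:35138870-35232402 on the plus strand of GRCh38 (GENCODE v29), with 39 transcripts, 26 of them protein-coding, over 10004 bases of merged exons. It had 6801 and 13977 counts in the FGF2 libraries, against 3379 and 6488 counts in the NC libraries. Its level was 49.3 FPKM in FGF2 library 1 and 51.9 FPKM in the rest of FGF2 library 2, against 24.0 FPKM in NC library 1 and 23.5 FPKM in the rest of NC library 2. Both FGF2 values lay far above both NC values, and the values within a group differed by little. The log2 fold change was 1.17 (1.13 to 1.22), with 1.13 from library 1 and 1.22 from the rest of library 2.

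Among 19922 protein-coding genes ordered by level, CD44 ranked 806 in the FGF2 sample, against 2026 in the NC sample. By fold change it ranked 111 from the top of the 11000 genes with the count minimum. Of the 3 members with that minimum (CD44, HYAL2 and HYAL3) 1 was higher and 0 were lower, while 3.07% of the 11000 genes were higher, 5.27% lower and 8.35% either; nothing is read from this share, because the members were chosen on this contrast. CD44 made up 80.0% of the summed FPKM of the 8 genes in the FGF2 sample, against 63.7% in the NC sample. The antisense gene CD44-AS1 covers 0.840% of the CD44 exon bases. It had 30 counts in FGF2 library 2 and 11 in NC library 2, a small number beside the CD44 counts. Counts are per gene, so standard and variant CD44 were not separated.

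**Figure D1:**
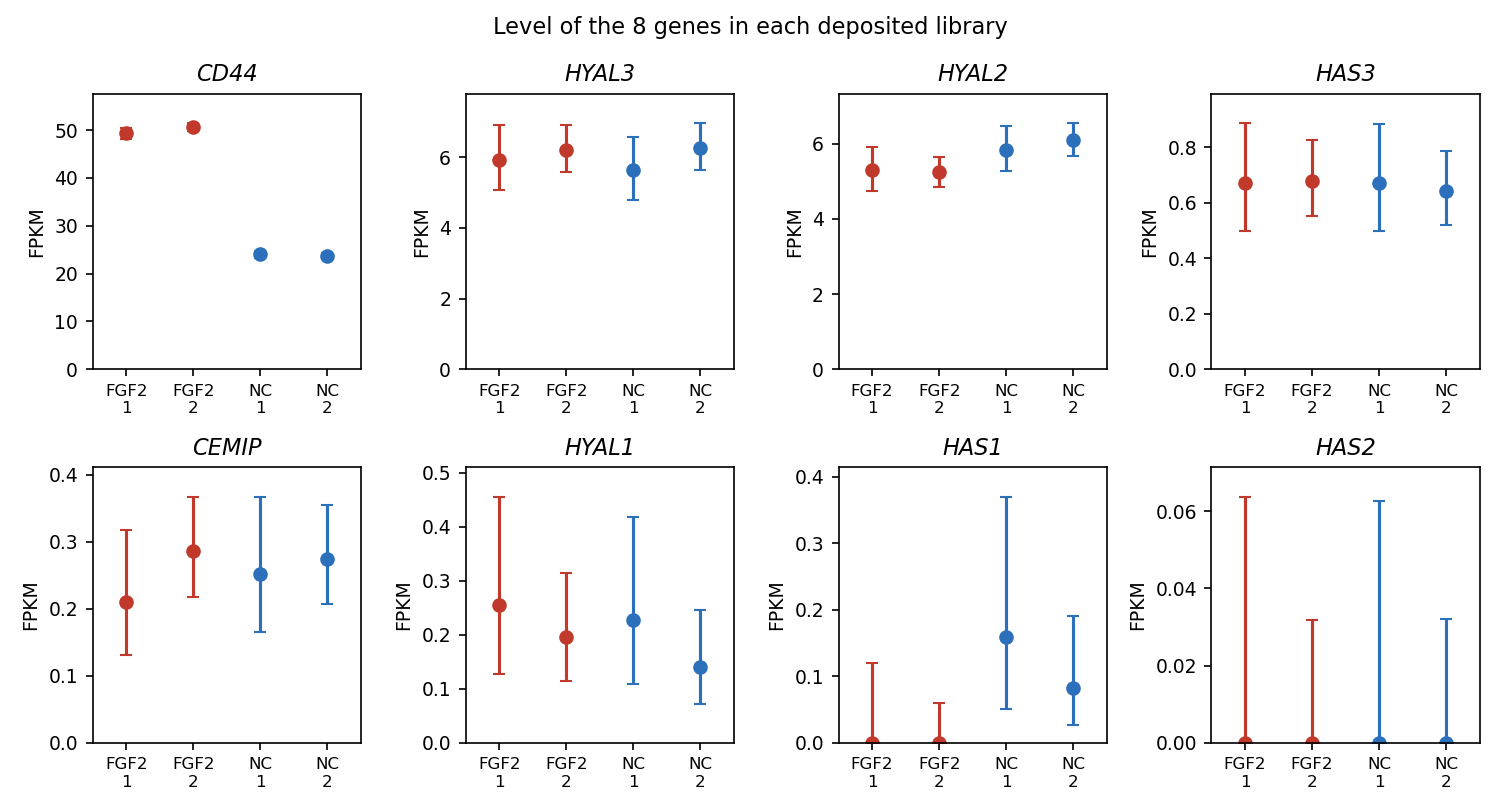
Level of each gene in FPKM (y axes, each starting at 0) in the FGF2 libraries (red) and the NC libraries (blue), with bars for 95% exact Poisson counting intervals. CD44 stood at 49.3 and 50.6 FPKM in the FGF2 libraries, against 24.0 and 23.7 FPKM in the NC libraries. The intervals of HAS3, HYAL1, HYAL3 and CEMIP overlapped between the groups. Those of HYAL2 overlapped in library 1 but not in library 2 (4.85 to 5.66 FPKM for FGF2, 5.68 to 6.55 FPKM for NC). FPKM is scaled by total count, and the HYAL2 fold change on otherwise scaled counts has an interval that holds 0.

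Hyaluronan synthase transcripts were scarce in both samples. HAS3, which makes hyaluronan of shorter chains than the other synthases in cell assays, was the only synthase gene with a count in every library. HAS3 (ENSG00000103044, chr16:69105564-69118719, plus strand) had 49 and 99 counts in the FGF2 libraries, against 50 and 93 counts in the NC libraries. Its level was 0.672 FPKM in FGF2 library 1 and 0.685 FPKM in the rest of library 2, against 0.672 FPKM in NC library 1 and 0.613 FPKM in the rest of library 2. The groups did not lie apart by more than counting error. The log2 fold change was 0.16 (-0.27 to 0.58), an interval that holds no change and reaches 1.50-fold higher. With a mean of 48.0 counts per read set HAS3 lay just under the count minimum. The gene CHTF8 on the opposite strand covers 6.90% of its exon bases, and the library kit does not mark strand.

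HAS2 (ENSG00000170961, chr8:121612116-121641390, minus strand), the main synthase of embryonic development in mice, was listed at 0 in all 4 libraries. A count of 0 allows up to 3 counts, a level of 0.0259 FPKM in FGF2 library 2 and 0.0262 FPKM in NC library 2. Its antisense gene HAS2-AS1 was at 0 as well. HAS1 (ENSG00000105509, chr19:51713112-51723994, minus strand), the third synthase gene, was at 0 in both FGF2 libraries. NC library 1 held 5 counts of it and NC library 2 the same number, so the rest of NC library 2 held 0. With 3 counts put in place of 0 in FGF2 library 2, HAS1 would be 1.59-fold lower in the FGF2 sample. That ratio rests on 5 counts of a single read set and leaves out their counting error. The library 2 intervals overlapped, at 0 to 0.0596 FPKM for FGF2 and 0.0265 to 0.191 FPKM for NC, so no minimum decrease is given.

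The hyaluronidase genes HYAL1, HYAL2 and HYAL3 lie side by side on chromosome 3, all on the minus strand, and none of them met the rule. HYAL2 (ENSG00000068001, chr3:50317790-50322906) encodes an enzyme anchored at the cell surface that cuts long hyaluronan into intermediate fragments. HYAL2 stood at 5.31 FPKM in FGF2 library 1 and 5.18 FPKM in the rest of library 2, against 5.85 FPKM in NC library 1 and 6.38 FPKM in the rest of library 2. Both FGF2 values lay below both NC values, by less than 1.5-fold. From 658 counts in the FGF2 sample, against 758 in the NC sample, the log2 fold change was -0.14 (-0.29 to 0.02). TUSC2 on the same strand covers 11.2% of the HYAL2 exon bases. TUSC2 had a log2 fold change of 0.07 (-0.06 to 0.20).

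HYAL3 (ENSG00000186792, chr3:50292831-50299468), whose own enzymatic activity is uncertain, stood at 5.93 FPKM in FGF2 library 1 and 6.49 FPKM in the rest of library 2, against 5.64 FPKM in NC library 1 and 6.95 FPKM in the rest of library 2. The groups overlapped fully. Library 2 held 348 counts in either group, and the log2 fold change on scaled counts was 0.07 (-0.15 to 0.29). The interval leaves out a change of 1.5-fold in either direction as far as counting error goes. NAA80 covers 12.2% of the HYAL3 exon bases and IFRD2 2.12%, both on the same strand, so part of the HYAL3 count is uncertain. In the FGF2 sample NAA80 had a log2 fold change of -0.29 (-0.66 to 0.07) and IFRD2 of 0.36 (0.29 to 0.43), and neither met the rule.

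HYAL1 (ENSG00000114378, chr3:50299889-50312381), the lysosomal hyaluronidase, had 11 and 17 counts in the FGF2 libraries, against 10 and 12 counts in the NC libraries. The level was 0.197 FPKM in the FGF2 sample, against 0.140 FPKM in the NC sample. The log2 fold change of 0.55 had an interval from -0.58 to 1.77, and the read sets gave 0.25 and 1.39, so no difference was detectable at this depth.

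CEMIP (ENSG00000103888, chr15:80779343-80951776, plus strand), which encodes a hyaluronan-binding protein needed for hyaluronan breakdown in skin fibroblasts, was also under the count minimum. It had 22 and 60 counts in the FGF2 libraries, against 27 and 57 counts in the NC libraries. The level was 0.285 FPKM in the FGF2 sample, against 0.274 FPKM in the NC sample. The read sets disagreed in sign, at -0.17 from library 1 and 0.35 from the rest of library 2, around a log2 fold change of 0.14 (-0.41 to 0.69).

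**Figure D2:**
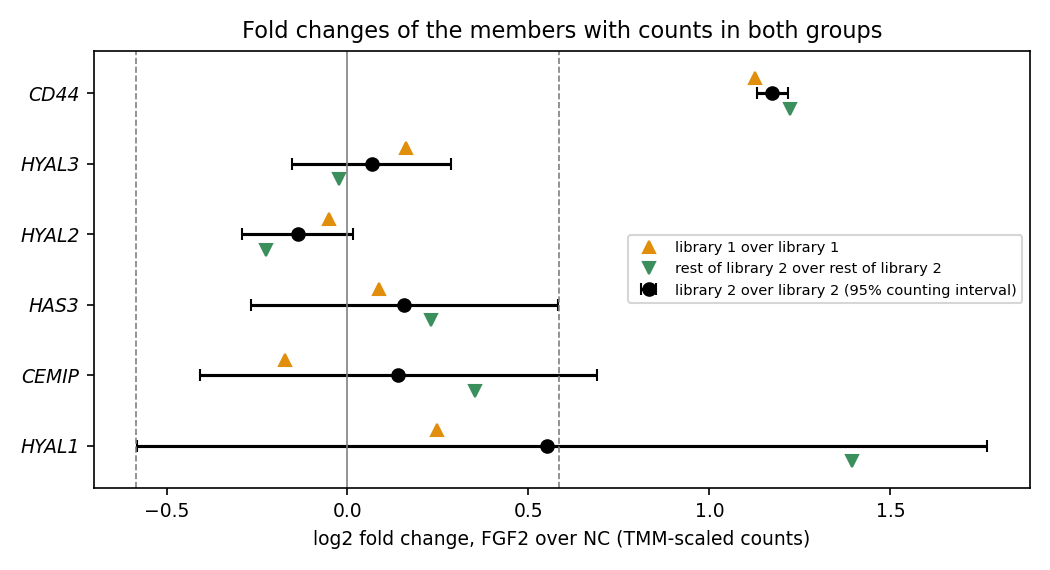
Log2 fold change of FGF2 over NC (x axis) for the 6 members with counts in both groups, from library 2 with its 95% counting interval (black), from library 1 (orange) and from the rest of library 2 (green). Dashed lines mark 1.5-fold. CD44 lay at 1.17, beyond the line in both read sets, and the intervals of the other 5 genes hold 0.

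By level the order was CD44, HYAL3, HYAL2, HAS3, CEMIP, HYAL1 in both samples, with HAS1 and HAS2 at the end. CD44 stood above HYAL3 by 50.6 against 6.21 FPKM in the FGF2 sample. The intervals of HYAL3 and HYAL2 overlapped in each sample. They were 5.58 to 6.90 and 4.85 to 5.66 FPKM in the FGF2 sample, and 5.63 to 6.97 and 5.68 to 6.55 FPKM in the NC sample. CEMIP and HYAL1 had overlapping intervals as well. HYAL2 and HYAL3 exceeded HAS3, with intervals far apart.

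**Figure D3:**
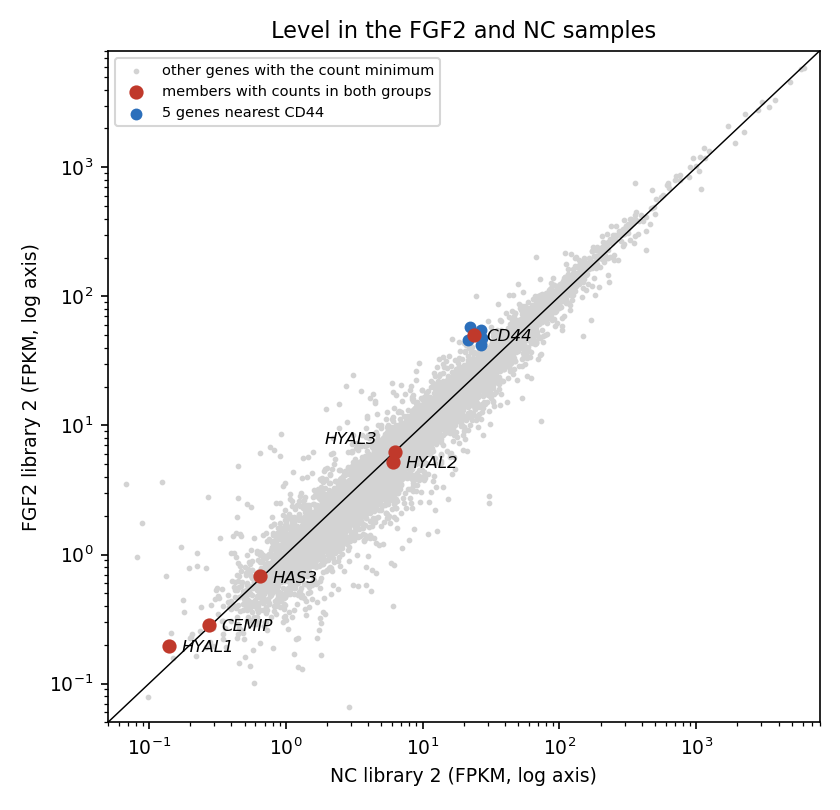
Level in FGF2 library 2 (y axis) against NC library 2 (x axis), both in FPKM on log axes, for genes with the count minimum (grey), the 6 members with counts in both groups (red) and the 5 genes nearest CD44 (blue). The line marks equal levels. CD44 lay above it, and HYAL3, HAS3 and CEMIP lay close to it.

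The genes nearest to CD44 in level were taken by the Euclidean distance of log2 FPKM over the FGF2 and NC samples, which is a likeness over 2 samples only. They were DCBLD2 (distance 0.203), IER3 (0.204), ERRFI1 (0.209), KRT19 (0.221) and PXN (0.319). DCBLD2, a transmembrane protein gene related to the neuropilins, stood at 46.0 FPKM in the FGF2 sample, against 21.4 FPKM in the NC sample, or 1.18 (1.14 to 1.23) as log2 fold change. IER3, an immediate early response gene, was at 1.13 (1.02 to 1.24) and ERRFI1, which encodes a feedback inhibitor of the EGF receptor, at 1.46 (1.39 to 1.52). KRT19 was at 0.88 (0.80 to 0.97) and PXN, which encodes the focal adhesion adaptor paxillin, at 0.74 (0.69 to 0.79). All 5 met the 1.5-fold rule, as 3.07% of the 11000 genes did in the higher direction; genes this near CD44 in both samples are past 1.5-fold in library 2 by their choice, so nothing is read from this count.

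Around the members, 73 other genes were listed by function, 72 were found in the tables and 49 had the count minimum. Of these 5 were higher, 2 were lower and 42 were neither, beside 3.07% higher and 5.27% lower over all 11000 genes. Those shares also stand beside the counts of each list. The lists were written with earlier results of these data known, so nothing is read from their counts or medians. The median log2 fold change was 0.04, against 0.02 over all 11000 genes. Values of named genes follow by role.

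Enzymes that supply the sugar nucleotides for hyaluronan had 3 of 13 higher and 0 lower, with a median of 0.26. UAP1, which makes UDP-N-acetylglucosamine in the last step of the hexosamine pathway, stood at 69.3 and 68.9 FPKM in the FGF2 libraries, against 42.9 and 42.6 FPKM in the NC libraries, a log2 fold change of 0.77 (0.72 to 0.83). HK2, a hexokinase gene, stood at 43.4 FPKM in both FGF2 libraries, against 20.1 and 20.0 FPKM in the NC libraries, and was 2.30-fold higher. PGM2, which encodes a phosphopentomutase that also acts on glucose phosphates, was at 0.76 (0.66 to 0.86). These enzymes also feed glycolysis, glycogen and protein glycosylation. UGDH, named after its value was seen because it makes UDP-glucuronic acid, stood at 10.1 FPKM in the FGF2 sample, against 13.2 FPKM in the NC sample (-0.30, -0.42 to -0.19), short of the rule. GFPT2, likewise named afterwards, encodes an isoform of the first enzyme of the hexosamine pathway. It had a log2 fold change of 0.66, but 0.52 from library 1, below the bound of 1.5-fold.

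Other enzymes that degrade hyaluronan or its fragments had 0 of 4 higher and 0 lower (median -0.10), with HYAL4 and SPAM1 at 0 in every library. GUSB, which encodes the lysosomal beta-glucuronidase, stood at 17.8 FPKM in the FGF2 sample, against 19.6 FPKM in the NC sample (-0.06, -0.15 to 0.03). CEMIP2, a membrane-bound relative of CEMIP named here after its value was seen, stood at 6.48 FPKM in the FGF2 sample, against 9.05 FPKM in the NC sample (-0.40, -0.49 to -0.31), short of the rule. Its level per length was above that of CEMIP in both samples.

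Other hyaluronan receptors had 1 of 4 higher and 0 lower, with a median of -0.16. TLR4, the receptor for bacterial lipopolysaccharide that hyaluronan fragments are reported to engage, stood at 3.22 and 3.15 FPKM in the FGF2 libraries, against 1.56 and 1.61 FPKM in the NC libraries. The log2 fold change was 1.05, with 1.13 from library 1 and 0.97 from the rest of library 2. HMMR, also called RHAMM, a hyaluronan-binding protein of the mitotic spindle, stood at 23.0 FPKM in the FGF2 sample, against 26.7 FPKM in the NC sample (-0.13, -0.21 to -0.06), and was named after its value was seen. LAYN, likewise named afterwards, stood at 2.44 FPKM in the FGF2 sample, against 3.82 FPKM in the NC sample (-0.56, -0.82 to -0.31). Its read sets gave -0.43 and -0.71, so it fell short of the rule. SUSD5, the remaining receptor gene with the count minimum, was at -0.18 (-0.45 to 0.09). The endothelial receptor gene LYVE1 was at 0 in every library.

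Proteins that organise hyaluronan outside the cell were mostly near or at 0. Of 17 genes 3 had the count minimum and 7 were at 0 in every library. Of the 3, 1 was higher and 1 lower. PTX3, which encodes a long pentraxin that crosslinks hyaluronan through inter-alpha-inhibitor heavy chains in the mouse cumulus matrix, stood at 99.7 and 100.1 FPKM in the FGF2 libraries, against 25.1 and 24.6 FPKM in the NC libraries. Its log2 fold change was 2.10 (2.02 to 2.19). HAPLN3, a link protein gene, was lower at 0.576 and 0.607 FPKM in the FGF2 libraries, against 1.61 and 1.70 FPKM in the NC libraries (-1.40, -1.86 to -0.97), from 59 counts in FGF2 library 2 and 164 in NC library 2. Without either NC library it fell under the count minimum. TNFAIP6, which encodes the enzyme that moves the heavy chains onto hyaluronan, was at 0 in every library.

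Proteases that shed CD44 had 0 of 8 higher and 1 lower, with a median of -0.14. APH1B, a gamma-secretase subunit gene, was lower at 0.481 FPKM in the FGF2 sample, against 1.31 FPKM in the NC sample (-1.36, -1.77 to -0.97). The subunit gene APH1A, at 32.9 FPKM in the FGF2 sample, against 36.4 FPKM in the NC sample, stood at -0.06 (-0.13 to 0.01), and both it and MMP14, which encodes a membrane-bound metalloproteinase (-0.18, -0.26 to -0.10) were named after their values were seen. Regulators of CD44 splicing had 0 of 11 in either direction, with a median of 0.19. HNRNPA1, which has many near-identical pseudogenes that can share reads, stood at 0.35 (0.33 to 0.37), and HNRNPM at 0.02 (-0.01 to 0.05). ESRP1, an epithelial splicing factor gene that favours variant CD44, was at 0 in every library. Its relative ESRP2, named after its value was seen, stood at 7.29 FPKM in the FGF2 sample, against 6.77 FPKM in the NC sample. Linkers of CD44 to the cytoskeleton had 0 of 6 in either direction, with a median of 0.06. The ERM family genes EZR (0.18, 0.14 to 0.22) and MSN (0.19, 0.16 to 0.22) stood at 125.7 and 125.4 FPKM in the FGF2 sample, against 117.2 and 116.1 FPKM in the NC sample. RDX, the other ERM gene, named after its value was seen, stood at 22.2 FPKM in the FGF2 sample, against 26.0 FPKM in the NC sample (-0.15, -0.20 to -0.09), short of the rule.

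**Figure D4:**
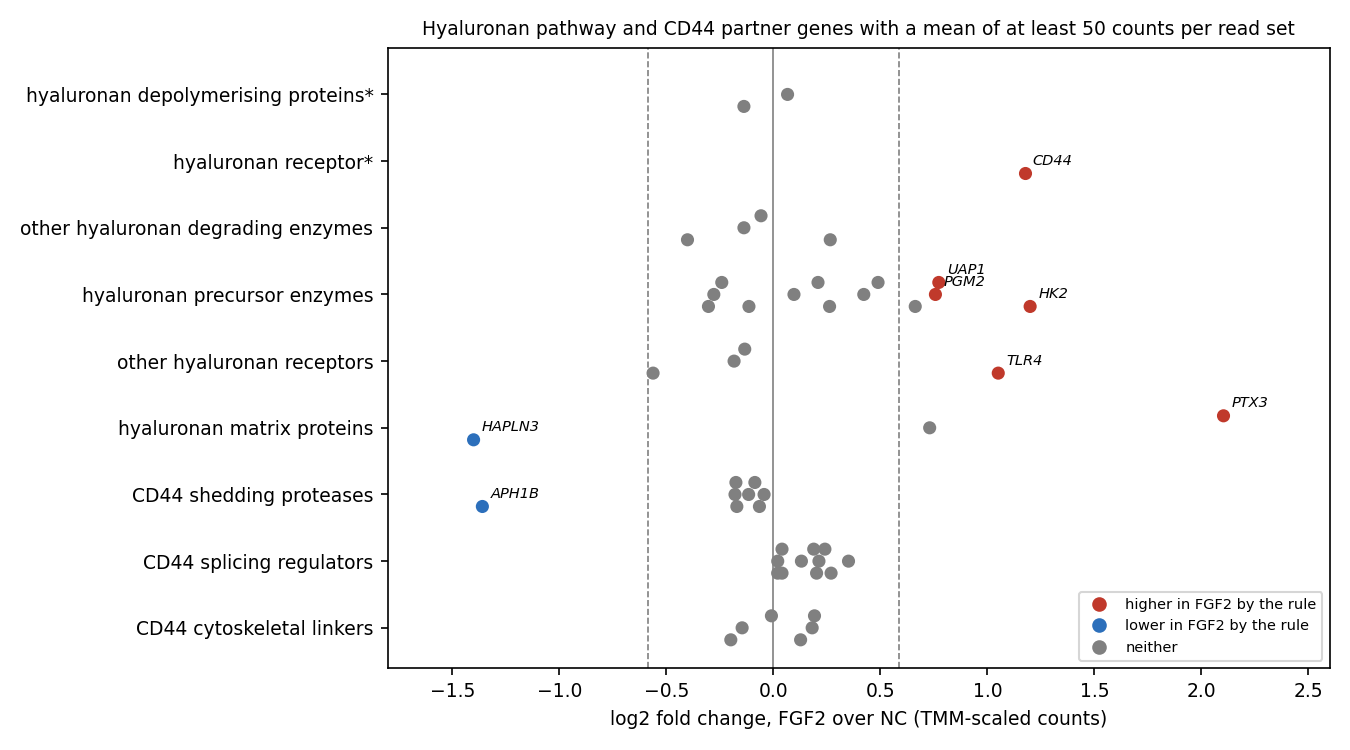
Log2 fold change of FGF2 over NC (x axis) for each gene with the count minimum, by list (rows, members marked with an asterisk), coloured red where higher, blue where lower and grey where neither by the rule. Dashed lines mark 1.5-fold. CD44, UAP1, PGM2, HK2, TLR4 and PTX3 lay to the right by the rule, and HAPLN3 and APH1B to the left.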

How the data were processed

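Each of the 4 libraries came with a table of read counts per gene and FPKM, both deposited by the authors. Per the submitters' processing notes, HISAT2, HTSeq 0.13.5 and GRCh38 were used. Neither the annotation release nor the handling of reads in overlapping genes is given in these sources. The deposited FPKM values equal counts over length and total. For 99.5% of 11923 genes with over 20 counts in every library, the implied length rounds to the merged exon length in GENCODE v29, which was used for coordinates. The NEBNext Ultra kit of the labels' protocols does not mark strand. Counts were scaled by TMM (edgeR 4.0.16, R 4.3.3), and fold changes are log2 ratios of scaled library 2 counts with 0.5 added and a Clopper-Pearson interval at a level of 0.95. Libraries of a group share reads, so edgeR's quasi-likelihood test was not run. The rule for differences was tested on simulated counts that held counting noise only. The real read sets of a group differed by more (chi-square per gene of 2.42 for FGF2 and 2.46 for NC). The simulation therefore cannot give the rule's error rate on these data. Members, lists and rules were chosen with earlier results of these data known. Named are all members, every listed gene that met the rule, in lists without such a gene the 2 of highest NC level, and the 5 genes nearest CD44; 1 gene under this rule is not reported here. Alternatives were the scaling (total count, DESeq2 1.42.0 size factors), the count minimum, the fold bound, the added value, FPKM in place of counts, and leaving out each library. Sequences are from RefSeq.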

Additional observations from a re-analysis of the deposited data

How the results depend on the processing

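CD44 was higher and no member lower by the rule under all 12 alternatives. The CD44 log2 fold change became 1.09 with scaling by total count and 1.06 on deposited FPKM with 1 added, and was 1.147 to 1.1997 with a library left out. Total count moved the median of all genes by -0.08. With a library left out, ranges were 0.08 to 0.22 for HAS3, -0.20 to -0.08 for HYAL2, -0.08 to 0.21 for HYAL3, -0.27 to 0.48 for CEMIP and -0.16 to 1.83 for HYAL1, whose 1.83 came without NC library 1. Of the other listed genes 5 were higher and 2 lower. With no count minimum 4 were lower, and with a mean of at least 100 counts 0 were, since HAPLN3 and APH1B fell short. At 1.2-fold 8 were higher and at 2-fold 2. With a library left out 5 to 7 were higher and 1 to 3 lower, and HAPLN3 fell short of the count minimum without either NC library. Over all genes 338 were higher and 580 lower. These counts were 1156 and 2023 with no count minimum, 1364 and 1497 at 1.2-fold and 119 and 179 at 2-fold. On FPKM 217 were higher. With a library left out they were 453 to 493 and 675 to 824, because fewer read sets had to pass. Leaving out library 1 here means using the rest of library 2. No paired analysis was possible because the values come from no test, each group being 1 sample. Depth limits HAS1, HYAL1 and CEMIP.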

Other observations

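Some listed genes lay under the count minimum and are given as values, chosen after they were seen. ITIH3, which encodes a heavy chain that is transferred to hyaluronan, had 0 and 0 counts in the FGF2 libraries, against 10 and 28 counts in the NC libraries. With 3 counts put in place of 0 in FGF2 library 2, ITIH3 would be 8.91-fold lower in the FGF2 sample. That ratio leaves out the counting error of the 28 counts in NC library 2 and is not a lower bound. ANK3, which encodes an ankyrin that links membrane proteins to spectrin, had 9 and 22 counts in the FGF2 libraries, against 49 and 105 counts in the NC libraries, or -2.16 on the log2 scale (-2.92 to -1.51 for counting error). STAB2, a scavenger receptor gene for hyaluronan, had 17 and 30 counts in the FGF2 libraries, against 9 and 14 counts in the NC libraries (1.14, 0.21 to 2.20).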
